A study of Homo sapiens with 4 samples.

Results

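The dense H3K27ac window of DU-145 in chromosome band 22q11 was taken as the DU-145 peaks on chromosome 22 whose summit lies between 18 and 19 Mb of hg19, a window selected on the number of DU-145 peaks in it. This rule took 465 of the 75468 peaks in the DU-145 list and of the 251138 peaks in the lists of all 4 lines. The number of DU-145 peaks and the values of those peaks are therefore descriptions that were not tested. The study profiled H3K27ac by ChIP-seq in DU-145, a prostate cancer line, in COLO-205, a colon cancer line, and in OVCAR-3 and SKOV-3, which are ovarian cancer lines, to examine regulatory activity around the non-coding mutations it predicted. The lines were cultured with FBS, DU-145 in Eagle minimal essential medium, COLO-205 in RPMI, OVCAR-3 in RPMI 1640 and SKOV-3 in McCoy's 5a, and each gave 1 library with the same antibody. No replicate error can therefore be given. All intervals are 95% intervals. Those of shares (exact Clopper-Pearson) and tags (exact Poisson) cover counting error only, and those of medians (order statistics) cover the spread between peaks. Neighbouring peaks of 1 library are not independent, so the intervals are too narrow to serve as tests.

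H3K27ac is the acetylation of lysine 27 of histone H3, deposited mainly by p300 and CBP. It marks the nucleosomes that flank active promoters and enhancers, and it can spread over long domains in which many enhancers lie close together. The proximal part of 22q11 carries housekeeping and cell death genes, and it borders large repeated blocks, the low-copy repeats between which the deletions of the 22q11 deletion syndrome arise.

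The sequences below are the places on which the window's description turns. They are written 5′ to 3′ on the plus strand of GRCh37, the assembly that hg19 represents, and capitals mark the letters searched for as short motifs, which are described further on. The first is the summit of the member with the highest −log10 q, in an intron of the non-coding gene LINC01634, at chr22:18514973-18515173. The next 2 are summits of broad members within introns of MICAL3 at chr22:18455216-18455416 and chr22:18470688-18470888, of which the former overlapped OVCAR-3 peaks and the latter no peak of another line. In the former, capitals mark the YY1 letters on the minus strand. The last lies between MICAL3 and PEX26 at chr22:18539668-18539868, and was chosen as the member of highest −log10 q with AP-1 letters and no peak in another line.
LINC01634 intron: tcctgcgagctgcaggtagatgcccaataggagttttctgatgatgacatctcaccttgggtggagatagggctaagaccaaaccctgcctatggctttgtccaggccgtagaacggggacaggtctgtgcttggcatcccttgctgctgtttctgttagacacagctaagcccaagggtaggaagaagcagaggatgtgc
MICAL3 intron, also marked in OVCAR-3: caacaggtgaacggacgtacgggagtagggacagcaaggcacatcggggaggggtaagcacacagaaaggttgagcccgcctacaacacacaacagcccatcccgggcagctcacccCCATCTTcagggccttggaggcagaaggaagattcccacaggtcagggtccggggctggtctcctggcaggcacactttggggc
MICAL3 intron, DU-145 alone: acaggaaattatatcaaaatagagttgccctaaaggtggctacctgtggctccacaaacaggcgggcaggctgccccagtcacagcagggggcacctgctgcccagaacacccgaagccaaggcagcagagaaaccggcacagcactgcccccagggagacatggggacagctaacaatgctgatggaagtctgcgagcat
Between MICAL3 and PEX26: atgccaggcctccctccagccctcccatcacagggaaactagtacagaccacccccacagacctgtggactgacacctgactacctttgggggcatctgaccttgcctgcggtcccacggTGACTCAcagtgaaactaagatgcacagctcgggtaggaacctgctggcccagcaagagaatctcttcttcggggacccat

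Promoter sequence is given for 3 places where DU-145 and OVCAR-3 carried a peak at the start of the gene. These are the 105 bases between the divergent genes ATP6V1E1 and BCL2L13 at chr22:18111516-18111620, the 150 bases before the outermost start of MICAL3, a minus-strand gene, at chr22:18507328-18507477, and the 150 bases before PEX26 at chr22:18560539-18560688. Capitals mark GC box letters, in MICAL3 also the YY1 letters on the minus strand, and in PEX26 a GC box followed directly by the ETS letters on the minus strand.
ATP6V1E1 and BCL2L13: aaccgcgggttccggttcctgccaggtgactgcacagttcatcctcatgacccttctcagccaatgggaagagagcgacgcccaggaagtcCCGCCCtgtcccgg
MICAL3: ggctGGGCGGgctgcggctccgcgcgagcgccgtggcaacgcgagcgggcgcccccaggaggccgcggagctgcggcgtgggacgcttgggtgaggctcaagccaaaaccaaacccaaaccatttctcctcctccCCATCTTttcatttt
PEX26: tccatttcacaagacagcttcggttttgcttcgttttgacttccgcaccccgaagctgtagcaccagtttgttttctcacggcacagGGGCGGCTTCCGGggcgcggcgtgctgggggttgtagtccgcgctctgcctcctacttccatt

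The lists held 75468 peaks for DU-145, 85576 for COLO-205, 76093 for OVCAR-3 and 14001 for SKOV-3, so the SKOV-3 list is much the shortest. The number of ChIP tags, estimated from the peak values, ran from 22400000 in SKOV-3 to 36000000 in DU-145. The median pileup of tags at a summit ran from 24 to 30. DU-145 had a peak within 1 kb of a start of all 5 epithelial markers, as did COLO-205 and OVCAR-3, while SKOV-3 had one at 3. Of the prostate luminal genes TMPRSS2 had such a peak in DU-145, as it did in COLO-205 and OVCAR-3. None was listed in DU-145 at KLK3, which encodes prostate-specific antigen, or at HOXB13. DU-145 also had such a peak at 3 of 4 ovarian markers (MSLN, MUC16, PAX8), at 1 of 4 colon markers (LGALS4) and at 0 of 4 blood markers, beside 59.8% of all protein-coding genes. COLO-205 also had such a peak at 3 of 4 ovarian markers, at 3 of 4 colon markers and at KLK3. OVCAR-3 had one at 4 of 4 ovarian markers, at 1 of 4 colon markers and at HOXB13. SKOV-3 had one at 1 of 4 ovarian and 0 of 4 colon markers.

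Within the window, DU-145 had 465 peaks, COLO-205 69, OVCAR-3 85 and SKOV-3 9. DU-145 peaks covered 29.8% of the bases, against 2.31% in COLO-205, 3.99% in OVCAR-3 and 0.267% in SKOV-3. On the rest of chromosome 22 the densities were 48.4 peaks per Mb in DU-145, 66.8 in COLO-205, 40.7 in OVCAR-3 and 13.3 in SKOV-3. DU-145 peaks were thus 9.60 times as dense in the window as on the rest of the chromosome, while the same ratio was 1.03 in COLO-205, 2.09 in OVCAR-3 and 0.676 in SKOV-3. Among 3113 windows of 1 Mb, it ranked 4 in DU-145, 325 in COLO-205, 190 in OVCAR-3 and 426 in SKOV-3. When each list was cut to its 14001 peaks of lowest q-value, the window kept 73 DU-145 peaks, 8 of COLO-205, 12 of OVCAR-3 and 9 of SKOV-3.

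The window was not evenly filled. In bins of 50 kb, DU-145 had from 1 to 43 peaks, with a median of 29, and a run of 21 adjacent bins with at least 10 peaks each went from chr22:17600001-18650000. This run began before the window and held 628 DU-145 peaks, against 60 in COLO-205, 84 in OVCAR-3 and 12 in SKOV-3. Its part inside the window held 438 of the 465 members (94.2%) and was 43.6% covered. The most members per bin, 43, lay at 18100001 to 18150000, over ATP6V1E1 and BCL2L13. Coverage was highest at 18450001 to 18500000, in MICAL3, where 28 members covered 66.2% of the bases.

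The run ended at 18650000 within USP18. In the next 4 bins, from 18650001 to 18850000, there were 5 members, 3 COLO-205 peaks and none of OVCAR-3 or SKOV-3. In these bins 91.7% of the 31-base words of the reference occurred more than once in the genome, against 20.5% in the part of the run inside the window. Reads no longer than such words cannot be placed uniquely, so a lack of acetylation and a lack of placed reads cannot be told apart there. The longest distance between neighbouring members, 75332 bp, fell in this stretch. A further 21 members lay at 18850001 to 18950000, around DGCR6 and PRODH, where 55.9% of the words were repeated.

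**Figure D1:**
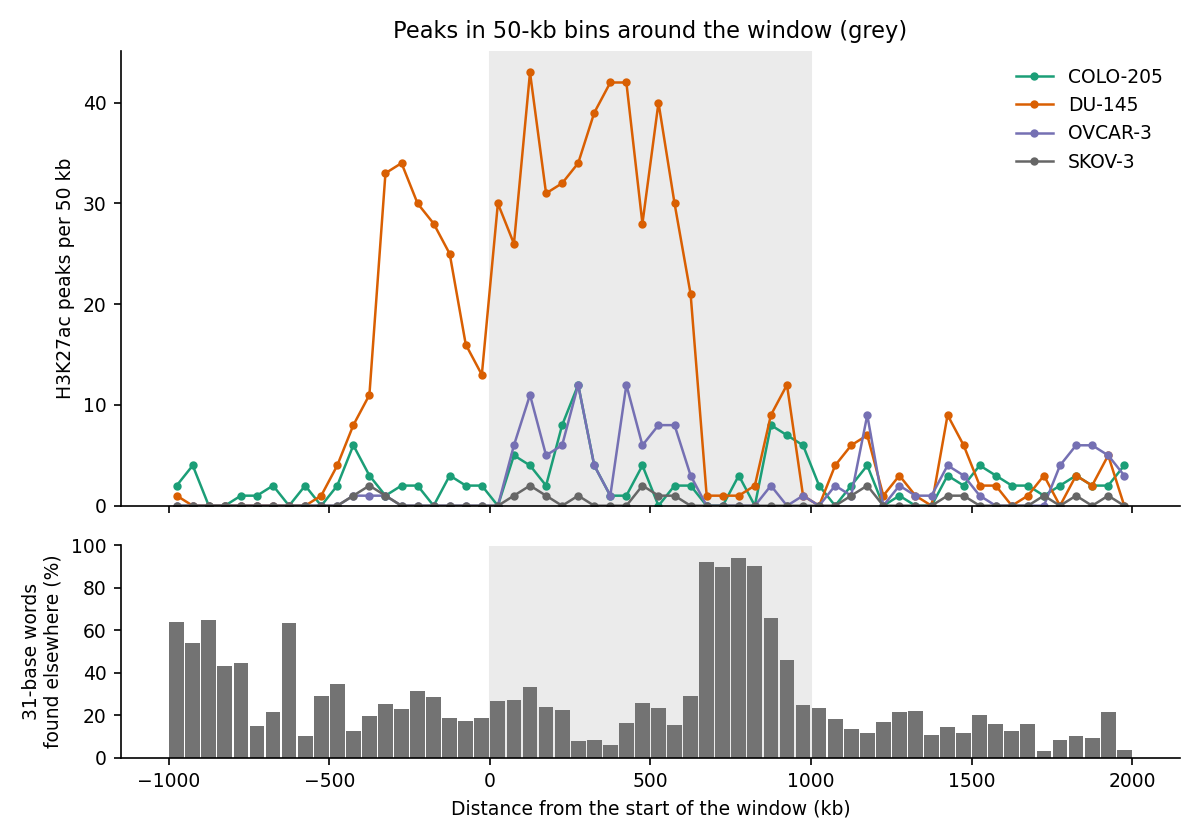
Peaks per 50 kb of each line (upper panel, lines and points coloured by cell line) and the percentage of 31-base words of the reference found more than once in the genome (lower panel, bars), against the distance in kb from the start of the window, which is shaded grey. DU-145 lies above the other 3 lines from about 400 kb before the window to 650 kb into it. There the counts of DU-145 and OVCAR-3 drop and the repeated words rise to about 90%.

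The DU-145 peak just before the window, chr22:17998359-17998678, and the first member, chr22:18002377-18002780, were both in an intron of CECR2, with a −log10 q of 10.2 and 11.9 and a pileup of 23 and 25 tags. The last member, chr22:18957616-18958682, overlapped an exon of the non-coding gene DGCR5 with a −log10 q of 31.4 and a pileup of 58 tags. The next DU-145 peak, chr22:19053477-19053758 in an intron of DGCR2, had a −log10 q of 8.05 and 27 tags. Peaks on each side of the left edge were thus alike in strength, while the last member at the right edge was stronger than the peak that followed it. The neighbouring 1-Mb windows held 204 DU-145 peaks before and 55 after, and those starting at 20000001 and 21000001 held 216 and 310. Leaving out all DU-145 peaks between 17 and 22 Mb, the rest of the chromosome held 28.5 peaks per Mb and the ratio of the window to it was 16.3.

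The members were close together and of moderate strength. The median gap between neighbours was 434.5 bp, against 1191 bp on the rest of chromosome 22, and 195 of 464 gaps (42.0%) were under 350 bp, against 464 of 1640 (28.3%). The median width was 437 bp (413 to 467), against 419 bp (405 to 434). The median fold enrichment over the local background was 4.87 (4.64 to 5.03) in the window and 4.37 (4.27 to 4.43) outside it.

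Fold enrichment is the pileup at the summit divided by the local background, with a pseudocount of 1 added to each, and these moved differently. The median pileup of the members was 28 tags (27 to 29), against 30 (29 to 31) on the rest of chromosome 22. The median background was 4.85 tags (4.62 to 4.90), against 6.24 (5.89 to 6.53). Against the rest of chromosome 22, the higher fold enrichment in the window thus went with a lower background and not with a taller pileup. Over all DU-145 peaks of the genome the median fold enrichment was 4.50 (4.49 to 4.52), the pileup 27 tags (27 to 27) and the background 4.95 tags (4.90 to 4.99), so against the whole list the background was nearly the same and the pileup 1 tag higher. Of the nearby windows with many DU-145 peaks, 21 to 22 Mb had a median fold enrichment of 4.87 and a background of 4.85, 17 to 18 Mb had 4.64 and 3.31, and 20 to 21 Mb had 4.06 and 6.90. At 58 members (12.5%) the background was at the lowest value of the library, 3.31 tags, against 11.2% of the peaks on the rest of the chromosome and 16.9% of all DU-145 peaks.

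The members lay mostly inside genes and away from promoters. Of the 465, 360 (77.4%, 73.3% to 81.1%) had their summit in an intron of a protein-coding gene, against 51.6% on the rest of chromosome 22. A further 40 (8.60%) were in an exon of such a gene and 48 (10.3%) in no gene, against 14.9% and 22.8%. Introns of protein-coding genes made up 53.5% of the window's bases and 76.1% of those of the run inside it, against 48.2% outside. The share of intronic members (77.4%) thus stood beside a like share of intronic sequence in the part of the window where most members lie.

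Only 42 members (9.03%, 6.59% to 12.0%) had their summit within 1 kb of the transcription start of a protein-coding gene, against 30.7% (28.5% to 33.0%) on the rest of the chromosome and 26.4% over all DU-145 peaks. The values depended on the rule, and the window lay below the rest under each, at 42.6% against 52.7% within 5 kb, 2.80% against 19.9% with 1 start per gene and 19.2% against 58.9% when every list was cut to the length of the shortest. Sequence this close to a start made up a similar part of the window and of the rest, 8.66% and 7.88%. Over the whole window, DU-145 peaks covered 42.8% of the bases within 1 kb of a start and 29.8% of all bases, a ratio of 1.43. In the run inside the window, which was defined by its DU-145 peaks per bin, they covered 48.1% and 43.6%, a ratio of 1.10. On the rest of chromosome 22 they covered 12.5% and 2.86%, a ratio of 4.36. Coverage inside the run was also close between protein-coding genes (43.2%) and sequence outside them (46.9%). The acetylated sequence of the run was therefore spread at similar shares over promoters, protein-coding gene bodies and the sequence outside them, which includes non-coding genes.

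MICAL3, a flavin monooxygenase that oxidises actin and acts in vesicle traffic, held the most members. Its body at chr22:18270415-18507327 contained 179 peaks in DU-145, 15 in COLO-205, 28 in OVCAR-3 and 2 in SKOV-3. These covered 51.9%, 1.85%, 4.41% and 0.274% of the gene. Of the 179 members 167 were intronic and 13 lay within 1 kb of a start. Among the 6794 protein-coding genes of at least 50 kb, MICAL3 ranked 8 by the share covered in DU-145, where the median gene had 0.812% and the 99th percentile was 26.3%.

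The apoptosis-related genes followed. BCL2L13, a BCL-2 family member of the mitochondrial outer membrane that acts in mitophagy, had 71 peaks in its body in DU-145, 5 in COLO-205, 13 in OVCAR-3 and 3 in SKOV-3. It was 45.6% covered in DU-145 and ranked 13 of 6794. BID, the BH3-only protein that carries the signal of caspase-8 to mitochondria, had 31, 9, 10 and 1 peaks in the same order of lines. Its body was 48.3% covered in DU-145, 8.27% in COLO-205, 18.5% in OVCAR-3 and 0.532% in SKOV-3. BID was thus the gene of the window with the largest covered share in OVCAR-3. Of the 31 members in BID, 14 (45.2%) overlapped a peak of another line, against 31 of 179 (17.3%) in MICAL3 and 13 of 71 (18.3%) in BCL2L13. It was 7 of 17 (41.2%) in SLC25A18 and 5 of 16 (31.2%) in PEX26. In ATP6V1E1 it was 6 of 25 (24.0%), in PRODH 1 of 11 (9.09%), in TUBA8 1 of 14 (7.14%), and in USP18, CECR2 and DGCR6 0 of 8, 0 of 21 and 0 of 2. Over all DU-145 peaks the share was 37.7%. The shares in BID, SLC25A18 and PEX26 were near that of the whole list and those in the other genes lay below it. No intervals are given for these small counts.

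The remaining genes were covered to a varying extent. ATP6V1E1, a subunit of the proton pump that acidifies endosomes and lysosomes, was 48.6% covered by 25 DU-145 peaks, and 3.06%, 4.63% and 0.530% covered in COLO-205, OVCAR-3 and SKOV-3. SLC25A18, a mitochondrial glutamate carrier, was 31.9% covered by 17 members, and PEX26, a protein of the peroxisomal membrane that acts in protein import, was 32.7% covered by 16. TUBA8, an alpha-tubulin, held 14 members over 16.3% of its body. USP18, the protease that removes ISG15 from proteins, held 8 over 20.3%. PRODH, the first enzyme of proline breakdown, held 11 over 23.9%, and DGCR6 held 2. In each of these genes DU-145 had the largest covered share of the 4 lines.

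**Figure D2:**
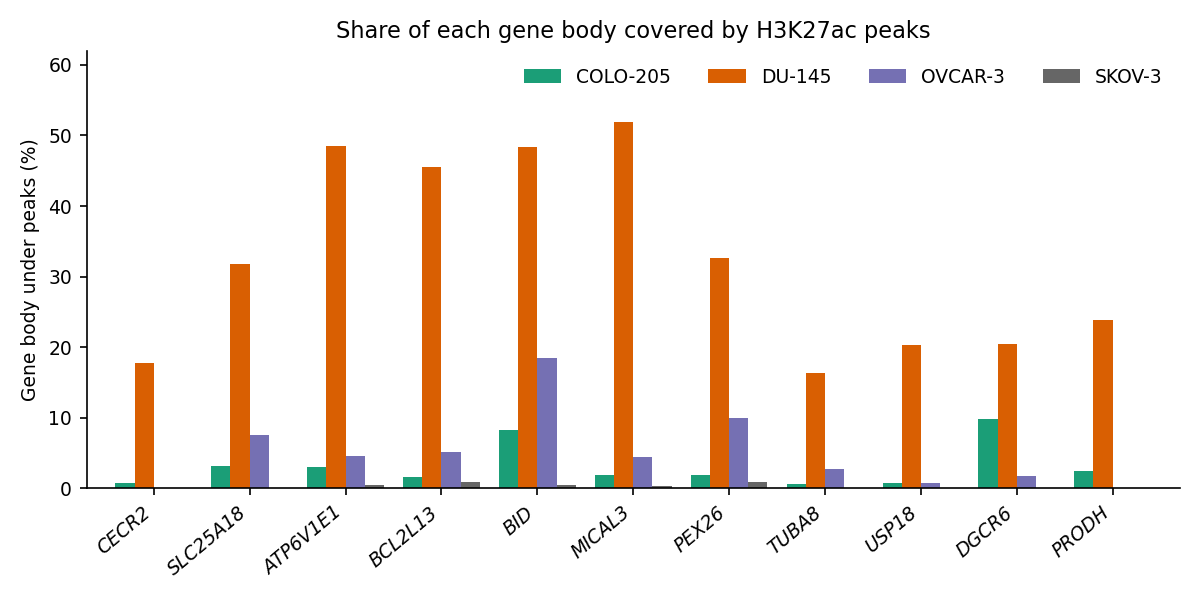
Share of the body of each named protein-coding gene that starts in the window, in map order, covered by H3K27ac peaks (percent, bars from 0) in each of the 4 lines, 1 library per line. DU-145 reaches from 16.3% in TUBA8 to 51.9% in MICAL3, and the highest value of another line is 18.5% in BID in OVCAR-3.

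CECR2, a bromodomain protein of a chromatin remodelling complex, starts before the window except for 1 internal start. Its body held 83 DU-145 peaks, of which 21 were members, 7 of COLO-205 and none of OVCAR-3 or SKOV-3. It was 17.8% covered in DU-145 and ranked 142 of 6794. None of the 21 members in it overlapped a peak of another line. The less studied genes ENSG00000288683, which overlaps PEX26 and TUBA8, ENSG00000283809, which overlaps DGCR6 and PRODH, and AC008132.13 held 27, 14 and 2 members.

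Members also lay between genes, although over the whole window 400 of the 465 lay in protein-coding genes and 65 outside them, and DU-145 peaks covered 40.3% of the sequence of such genes against 11.6% of the rest. The 12878 bp between BID and MICAL3 held 7 members and 5 peaks each of COLO-205 and OVCAR-3, with 69.6% of the bases covered in DU-145. The 53361 bp between MICAL3 and PEX26 held 41 members, 1 peak of COLO-205, 6 of OVCAR-3 and 1 of SKOV-3, with 47.3% covered in DU-145. The strongest member lay in this second stretch.

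The 5 members with the highest −log10 q were all in or beside MICAL3 or BCL2L13. The first, chr22:18513813-18516641 in LINC01634, lay 7746 bp from the nearest MICAL3 start and its summit sequence is the first shown. It had a pileup of 95 tags over a background of 3.47, a fold enrichment of 21.5, which is the highest in the window, and a −log10 q of 94.6. It overlapped 2 peaks of OVCAR-3, the stronger by −log10 q with 39 tags, and 1 of SKOV-3 with 20, and none of COLO-205. The next, chr22:18483098-18485486, covered an internal start of MICAL3 with 143 tags and a −log10 q of 93.8, and overlapped a peak in each of the other lines. Then chr22:18506331-18508050 covered the outermost MICAL3 start with 125 tags and had a −log10 q of 90.4, where OVCAR-3 was the single other line with peaks, of 37 and 41 tags. The fourth, chr22:18120856-18122155, lay at an internal start of BCL2L13 with 140 tags and a −log10 q of 74.7, again with a peak in each other line.

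The fifth and the widest members were broad stretches. The fifth, chr22:18455007-18458204, spanned 3198 bp of a MICAL3 intron with 109 tags and a −log10 q of 72.3, and overlapped 3 OVCAR-3 peaks of which the strongest had 71 tags and a width of 439 bp. The widest, chr22:18108717-18112211, spanned 3495 bp over the divergent starts of ATP6V1E1 and BCL2L13, where COLO-205 had a peak of 353 bp and the strongest OVCAR-3 peak was 706 bp wide. The next in width after these, chr22:18469564-18472598, spanned 3035 bp of a MICAL3 intron with 82 tags and a −log10 q of 50.5, and no other line had a peak in it. Where another line had a peak in these broad members, the strongest of these was narrower than the DU-145 peak.

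Of the 14 protein-coding genes with a start in the window, 13 had a peak within 1 kb of such a start in DU-145, 10 in COLO-205, 10 in OVCAR-3 and 3 in SKOV-3. Over all 20168 protein-coding genes the shares were 59.8%, 51.1%, 60.4% and 31.5%. The gene without such a peak in DU-145 was CECR2, which had none at this start in the other lines either. The 3 genes marked in SKOV-3 were BCL2L13, BID and MICAL3, the same genes at which all 4 lines shared a member. SLC25A18 and AC008132.13 had such a peak in DU-145 and in no other line.

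To compare heights between lines, the pileup at the strongest promoter peak was divided by the lowest background of its library, which scales with tags and fragment length and does not correct for the efficiency of the precipitation. At MICAL3 the pileup was 143 tags in DU-145, 30 in COLO-205, 140 in OVCAR-3 and 39 in SKOV-3, or 43.2, 12.7, 55.5 and 24.5 times the lowest background. At BCL2L13 it was 140, 67, 196 and 40 tags, or 42.3, 28.4, 77.7 and 25.1 times. At BID it was 86, 51, 213 and 19 tags, or 26.0, 21.6, 84.5 and 11.9 times. At BID and BCL2L13 the OVCAR-3 promoter was taller than that of DU-145, with counting intervals apart (73.5 to 96.6 against 20.8 to 32.1 times at BID), although DU-145 had the larger covered share of both gene bodies.

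At the other 6 named genes marked in DU-145 and OVCAR-3 the intervals of these lines overlapped. ATP6V1E1 stood at 36.2 times the lowest background in DU-145 and 37.7 in OVCAR-3, PEX26 at 32.6 and 34.5, USP18 at 28.7 and 26.2, DGCR6 at 31.4 and 30.5 and TUBA8 at 12.7 in each. By the strongest peak of each gene, the DU-145 promoter was above that of OVCAR-3 beyond counting error at 0 of the 8 genes. For MICAL3 this peak was at the internal start, and the result depends on that choice. At the outermost start of MICAL3 DU-145 stood at 37.8 times the lowest background (31.4 to 45.0), and the OVCAR-3 peaks at 16.3 (11.7 to 22.1) and 14.7 (10.3 to 20.2). Against COLO-205 it was above at 5 of 8 genes (ATP6V1E1, MICAL3, PEX26, USP18 and DGCR6), with overlapping intervals at BCL2L13, BID and PRODH. Against SKOV-3 it was above at all 3 genes marked in that line. By the strongest peak, the intervals of DU-145 and OVCAR-3 thus overlapped at 6 of the 8 genes. DU-145 had more peaks in each of these gene bodies. No share over all genes is given beside these counts. At DU-145 peaks of the other autosomes that overlapped an OVCAR-3 peak, the median ratio of DU-145 to OVCAR-3 by this height was 0.70. It was 0.97 for COLO-205 and 0.87 for SKOV-3.

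**Figure D3:**
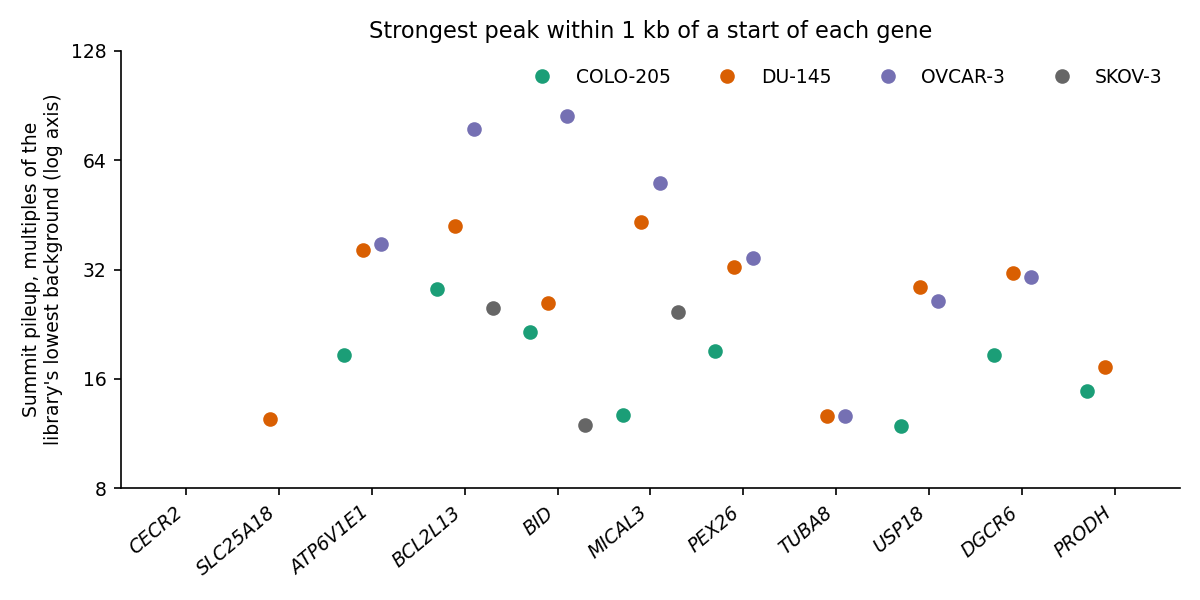
Pileup at the summit of the strongest peak within 1 kb of a start of each named gene, in multiples of the lowest background of its library (log axis), 1 point per line and gene, with no point where the list holds no such peak. DU-145 and OVCAR-3 lie close together at ATP6V1E1, PEX26, TUBA8, USP18 and DGCR6, and OVCAR-3 lies above DU-145 at BCL2L13 and BID.

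The families to which these genes belong were counted in the same way over all chromosomes. A promoter peak was found at 16 of 20 BCL-2 family genes in DU-145, 14 in COLO-205, 15 in OVCAR-3 and 11 in SKOV-3. For the 24 V-ATPase subunits the counts in the same order were 17, 14, 16 and 10, and for the 5 genes of the MICAL family 5, 4, 4 and 3. As shares these were 80%, 70%, 75% and 55% of the BCL-2 family and 70.8%, 58.3%, 66.7% and 41.7% of the V-ATPase subunits, beside the 59.8%, 51.1%, 60.4% and 31.5% over all protein-coding genes.

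Most members had no counterpart in another line. Of the 465, 95 (20.4%, 16.9% to 24.4%) overlapped a peak of at least 1 other line by 1 bp or more, against 39.2% (36.9% to 41.7%) on the rest of chromosome 22 and 37.7% over all DU-145 peaks. By line, 44 members (9.46%) overlapped a COLO-205 peak, 66 (14.2%) an OVCAR-3 peak and 7 (1.51%) a SKOV-3 peak, against 22.6%, 31.7% and 17.2% outside the window. Only 3 members (0.645%) overlapped a peak in all 4 lines, against 10.5% on the rest of chromosome 22 and 6.87% over all DU-145 peaks. Seen from the other lines, 48 of 69 COLO-205 peaks (69.6%), 77 of 85 OVCAR-3 peaks (90.6%) and 9 of 9 SKOV-3 peaks in the window overlapped a DU-145 peak, against 17.8%, 38.9% and 72.7% outside it. The window's large covered share in DU-145 enters these last values.

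The shared members were wider and taller than the others. Wider peaks have more bases that can overlap. The 95 shared members had a median width of 631 bp and a pileup of 33 tags, against 410 bp and 27 tags for the 370 members found in DU-145 alone. Of the 42 members near a start 14 (33.3%, 19.6% to 49.5%) were shared, and of the 423 farther away 81 (19.1%, 15.5% to 23.2%). On the rest of chromosome 22 the shares were 344 of 504 (68.3%, 63.99% to 72.3%) near starts and 300 of 1137 (26.4%, 23.8% to 29.0%) farther away, and over all DU-145 peaks 70.0% and 26.1%. The share in the window was thus below these values in both places, and by more near starts. The near-start sets are unlike in their starts. With 1 start per gene, 13 members and 326 peaks on the rest of the chromosome lay near a start.

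At the shared members, the pileup of DU-145 stood higher relative to the other lines than at shared peaks elsewhere on the chromosome. The log2 ratio of pileups, each in multiples of the lowest background of its library, had a median of 0.05 (−0.09 to 0.15) over the 95 members and −0.40 (−0.44 to −0.36) over 644 DU-145 peaks on the rest of chromosome 22. The difference of the medians was 0.46 on the log2 scale, and 75 of the 95 members lay above the median of the rest. By line the medians in the window and outside it were 0.18 and −0.07 against COLO-205, −0.04 and −0.69 against OVCAR-3, and 0.75 and −0.35 against SKOV-3, the last over 7 members. The intervals of these medians were −0.16 to 0.11 and −0.80 to −0.61 for OVCAR-3, −0.07 to 0.47 and −0.12 to −0.01 for COLO-205, and −0.43 to 1.19 and −0.41 to −0.31 for SKOV-3. They describe the spread between neighbouring peaks of 1 library and make no test of the shift. The 3 ratios use the same DU-145 pileups, so their signs are not independent. Near starts the median was 0.37 (0.00 to 0.70) over 14 members, against −0.40 (−0.48 to −0.33) over 344 peaks outside. Farther away it was 0.00 (−0.13 to 0.11) over 81 members, against −0.40 (−0.49 to −0.34) over 300 peaks. A peak shared with more than 1 line entered these and the pooled values as the median of its ratios.

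The members of 1 library share its precipitation and its control, and a member passed the threshold only where the DU-145 signal was high. The window was chosen for its DU-145 peaks and the rest of the chromosome was not, so the pileups compared here are tied to the measure that picked the window, and the part of this choice in the shift was not tested. The peak lists hold no measure of DNA copies, so more copies of the region and more acetylation per copy cannot be told apart.

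**Figure D4:**
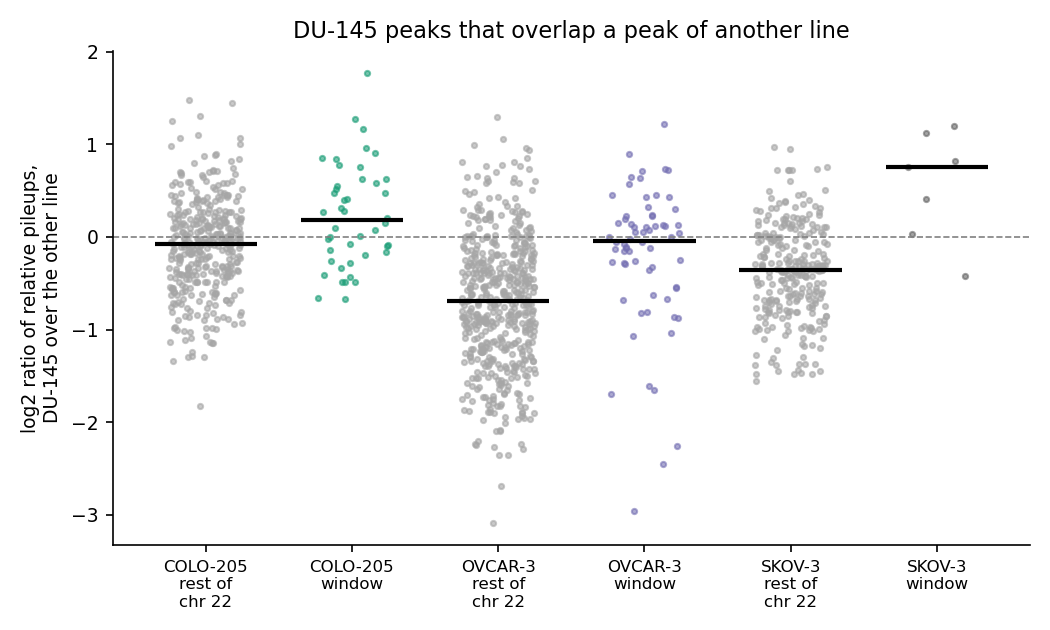
The log2 ratio of the relative pileup (pileup in multiples of the lowest background of its library) of DU-145 over COLO-205, OVCAR-3 or SKOV-3, at each DU-145 peak that overlaps a peak of that line, for the window (coloured, dark grey for SKOV-3) and the rest of chromosome 22 (light grey). Black bars are medians, which in the window are 0.18, −0.04 and 0.75 and on the rest of the chromosome −0.07, −0.69 and −0.35.

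In sequence, the members did not stand far from other DU-145 peaks. Over the summit and 100 bases to each side, the median GC share was 54.2% in the window, 56.7% on the rest of chromosome 22 and 54.7% over all DU-145 peaks. The letters TGACTCA or TGAGTCA, bound by AP-1, were found on either strand in 14 members (3.01%), against 3.23% of peaks on the rest of the chromosome and 2.82% of all DU-145 peaks. The YY1 letters AAGATGG were in 17 members (3.66%), against 3.47% and 3.21%, and the ETS letters CCGGAAG in 7 (1.51%), against 1.83% and 1.83%. For these motifs the counting interval of the window covered the shares of the other sets (1.66% to 5.00% for AP-1, 2.14% to 5.79% for YY1 and 0.607% to 3.08% for ETS).

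GC box letters, GGGCGG, bound by SP1 and related factors of CpG-rich promoters, were less frequent in the window, at 55 members (11.8%, 9.04% to 15.1%) against 19.1% (17.2% to 21.1%) on the rest of the chromosome and 17.8% over all DU-145 peaks. Farther than 1 kb from a start the shares were 10.6% in the window, 10.1% on the rest of the chromosome and 9.98% over all DU-145 peaks. Within 1 kb of a start they were 10 of 42 (23.8%, 12.1% to 39.5%) in the window and 198 of 504 (39.3%, 34.997% to 43.701%) on the rest of the chromosome. The lower share in the window was thus not seen among the farther peaks. A match describes the letters and not a bound site.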

How the data were processed

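H3K27ac ChIP-seq peak lists of 4 lines were analysed, 1 library each. The authors mapped reads to hg19 and called narrow peaks per library at a q-value below 0.001, and the submitters' processing notes name Bowtie2 2.1.0 and MACS2 2.1.0.20150603. Each deposited peak has a score (10 times its −log10 q), a ratio of enrichment (fold over local background) and the −log10 of its p-value and q-value, none scaled between libraries. The pileup and background at each summit, and from the lowest background the ChIP tags, were solved from the deposited ratio and −log10 p of a peak within a tolerance of 0.001, which succeeded for at least 99.9% of peaks. On simulated DU-145 values the pileup was recovered at 100% of 5000 summits. The tag numbers are estimates. They take the lowest background as the genome-wide level, the narrowest peak as the fragment length and the genome as 2700000000 positions. The study's methods merge peaks less than 350 bp apart, but the deposited lists are unmerged and were used so. Genes were those of the GENCODE annotation on GRCh37, and sequence was read from that assembly.

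Some members of the marker and gene lists are not reported here. With 1 library per line no test between lines was made. The window, gene lists and markers were chosen with earlier results of these data known. Named were the 5 members of highest −log10 q, the 3 widest, those at the edges, the strongest peak at each protein-coding gene starting in the window, and the genes holding members. Alternatives were stricter q-values, merged peaks, equal list lengths, other overlap and start rules and other reference regions. Scripts ran in Python 3.11.15 with scipy 1.17.1, numpy 2.4.6, numba 0.67.0, matplotlib 3.10.9 and pandas 2.3.3.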

Additional observations from a re-analysis of the deposited data

How the results depend on the processing

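Of 50 values under alternative settings, 30 stayed near the reported value and 20 moved. Values that moved lay outside the interval of the reported value. Where the reported value has no interval, they differed from it by over 1.5 times. With a −log10 q of at least 10, the window held 235 DU-145 peaks over 19.6% of its bases, with a median fold enrichment of 5.85, a median width of 566 bp and 13.6% shared with another line. With peaks less than 350 bp apart merged, these were 270 peaks, a fold enrichment of 5.30, a width of 710.5 bp and 27.04% shared. When every list was cut to the length of the shortest, they were 73 peaks over 9.89% of the bases, 7.68, 1163 bp and 16.4%, and 19.2% lay within 1 kb of a start. That share was 42.6% within 5 kb and 2.80% with 1 start per gene. The shared share was 10.5% when 50% of a peak had to overlap and 27.3% when peaks of other lines were widened by 350 bp. The density ratio was 16.3 without 17 to 22 Mb, which, like leaving out the bins after the run, was added after the data were seen. The difference in median relative pileup, 0.46, stayed between 0.33 and 0.49, and the ratio to the line with the next most peaks, 5.47, between 4.29 and 6.08. Fewer or joined peaks follow from the construction of the stricter and merged settings. The 50% overlap rule and 1 start per gene can only lower their shares. Widened peaks and the 5 kb distance can only raise theirs. The causes of the other moves were not tested. No paired analysis was possible because each line has a single library. The estimated depth of 22400000 to 36000000 tags and the q-value threshold limit the lists, so no peak does not mean no acetylation, above all in SKOV-3.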

Other observations

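The 3 windows of 1 Mb with more DU-145 peaks than this one were all on chromosome 14, starting at 31000001, 35000001 and 50000001, with 516, 609 and 600 peaks. Their peaks had a median fold enrichment of 7.42, 7.19 and 6.87, against 4.87 in the chromosome 22 window, over a median background of 3.31, 3.31 and 3.52 tags, against 4.85. Peaks within 1 kb of a start made up 9.69%, 6.40% and 7.17%, close to the 9.03% of the chromosome 22 window, and peaks shared with another line 6.98%, 28.7% and 18.0%, against 20.4%. These windows were ranked by the same measure by which the chromosome 22 window was chosen, and no test was made.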
